A study of Homo sapiens with 18 samples.

Results

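The transcriptional co-activators YAP (gene YAP1) and TAZ (gene WWTR1), the DNA-binding partner TEAD1, the kinase LATS2 and the known YAP/TAZ targets CYR61, ANKRD1 and AMOTL2 were followed across 3 histone marks in human lung adenocarcinoma cells. The members were chosen by position, as all peak summits in 7 windows of the hg19 build, 1 window for each gene. They comprised 1110 of 947675 summits in 13 chromatin immunoprecipitation and sequencing (ChIP-seq) libraries. H3K4me3 is the mark of promoters, H3K4me1 that of enhancers and promoter flanks, and H3K27ac is found at both kinds of element when they are active.

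Each mark was mapped in 4 conditions. These were the line H2087-LCC, written here as LCC; LCC cells given TGF-β1 for 4 days at 100 nM by the labels, a high dose for this cytokine that could not be checked, written as TGFb; the line H2087-LCC-SO1, written as SO1; and the line H2030. TGF-β1 is a cytokine that can induce an epithelial-mesenchymal transition in such cells. LCC and SO1 were grown in a medium with hydrocortisone, insulin and epidermal growth factor added, and H2030 in a plainer one, so that for H2030 line and medium cannot be told apart. LCC H3K27ac had 2 biological replicates, and every other combination had 1 library. The 18 samples also include 5 inputs, which were not analysed here. No test between conditions is possible with 1 library each. The LCC replicates give the one measure of experimental error, and each line is represented by its own culture alone. The labelled cell type could not be set against marker genes, because no hg19 gene annotation was at hand.

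The Hippo pathway limits YAP and TAZ. Its kinases, LATS2 among them, phosphorylate both proteins, which are then kept in the cytoplasm and degraded. When the kinases are inactive, YAP and TAZ enter the nucleus and bind DNA through TEAD factors such as TEAD1, mostly at enhancers. CYR61, also named CCN1, encodes a secreted matrix protein, ANKRD1 a nuclear ankyrin-repeat protein, and AMOTL2 a scaffold protein of the angiomotin family that binds YAP. AMOTL2 and LATS2 restrain YAP and are themselves induced by it.

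Of the 7 members, 5 had promoter sequences in RefSeq (GRCh38.p14 build), and 6 of these sequences are shown because they hold, or lack, the letters that TEAD factors recognise. Each runs from 250 bases before the annotated start to 30 bases after it, 5′ to 3′ on the gene's strand, and capitals mark GGAATG or its complement CATTCC. The coordinates that follow belong to GRCh38.p14 and cannot be compared with the hg19 positions of the summits. The ANKRD1 sequence is chr10:90921058-90921337, the AMOTL2 sequence, from start 2 of 2, chr3:134374418-134374697, the LATS2 sequence chr13:21061557-21061836 and the YAP1 sequence chr11:102110197-102110476. The WWTR1 starts lie at chr3:149703244-149703523 (start 1) and chr3:149657996-149658275 (start 2). YAP1 is on the plus strand and the others are on the minus strand.
ANKRD1: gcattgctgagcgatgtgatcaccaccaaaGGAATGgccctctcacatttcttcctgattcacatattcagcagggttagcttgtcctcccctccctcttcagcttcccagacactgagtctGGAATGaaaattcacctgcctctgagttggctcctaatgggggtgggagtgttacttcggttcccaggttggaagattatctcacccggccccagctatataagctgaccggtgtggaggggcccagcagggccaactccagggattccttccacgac
AMOTL2 start 2: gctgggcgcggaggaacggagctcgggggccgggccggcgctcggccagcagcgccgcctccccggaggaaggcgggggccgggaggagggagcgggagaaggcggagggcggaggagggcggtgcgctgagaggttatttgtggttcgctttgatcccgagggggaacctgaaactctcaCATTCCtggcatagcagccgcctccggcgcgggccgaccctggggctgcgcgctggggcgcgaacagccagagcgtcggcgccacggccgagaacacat
LATS2: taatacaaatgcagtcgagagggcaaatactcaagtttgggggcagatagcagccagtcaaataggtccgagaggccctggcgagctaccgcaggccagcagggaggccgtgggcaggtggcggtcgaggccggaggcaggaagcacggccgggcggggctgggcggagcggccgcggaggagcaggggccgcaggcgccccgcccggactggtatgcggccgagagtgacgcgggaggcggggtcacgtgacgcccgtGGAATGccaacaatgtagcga
YAP1: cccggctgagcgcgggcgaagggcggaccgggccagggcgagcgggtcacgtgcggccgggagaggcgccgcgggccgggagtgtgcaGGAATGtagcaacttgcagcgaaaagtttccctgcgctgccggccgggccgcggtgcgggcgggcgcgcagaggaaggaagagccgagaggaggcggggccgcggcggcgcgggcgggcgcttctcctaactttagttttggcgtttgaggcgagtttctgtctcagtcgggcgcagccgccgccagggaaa
WWTR1 start 1: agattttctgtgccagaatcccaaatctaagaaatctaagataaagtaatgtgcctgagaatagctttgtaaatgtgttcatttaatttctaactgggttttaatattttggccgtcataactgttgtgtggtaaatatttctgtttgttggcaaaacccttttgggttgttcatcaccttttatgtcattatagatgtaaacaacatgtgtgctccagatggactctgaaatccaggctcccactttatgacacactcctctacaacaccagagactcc
WWTR1 start 2: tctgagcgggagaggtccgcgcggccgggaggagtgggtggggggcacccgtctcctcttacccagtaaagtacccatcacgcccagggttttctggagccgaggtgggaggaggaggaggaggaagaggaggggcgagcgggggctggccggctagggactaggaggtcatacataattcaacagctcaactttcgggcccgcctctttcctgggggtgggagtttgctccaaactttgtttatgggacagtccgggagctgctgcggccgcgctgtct

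GGAATG was searched on both strands in windows of 300 bases and occurred in 4928 of 35116 RefSeq promoters, or 14.0%. The ANKRD1 window held 2 matches, at positions −220 and −128 counted from the annotated start. The YAP1 window held 1, at −162, and the window of AMOTL2 start 2 held 1, on the other strand, at −69. AMOTL2 start 1, at chr3:134375388-134375667 and not shown, held none. In LATS2 the match lay after the start, at position 10. Neither WWTR1 window held one. The AP-1 letters TGANTCA occurred in 2707 promoters (7.71%) and, of these members, in ANKRD1 alone, where TGATTCA began at −195, between the TEAD matches. A match is a description of letters and not of binding.

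The files list each peak as 1 summit with a score, which is read as the −log10 of either a p-value or a q-value. A score rises with sequencing depth, which is unknown here, so each one is best read against its own list. Among the strongest 10% of summits in LCC H3K27ac replicate 2, the summit within 1 kb in another list scored a median of 1.59 times as high in TGFb, 1.28 times in SO1, 1.28 times in H2030 and 0.503 times in LCC replicate 1. A wide peak is listed by its single summit. Where a list has no summit beside a strong flanking one, a missing mark and a wider peak cannot be told apart. Lists held between 50628 and 68069 summits for H3K27ac, between 128082 and 143813 for H3K4me1 and between 25624 and 28850 for H3K4me3.

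TEAD1 had 388 of the summits, WWTR1 313, YAP1 186, LATS2 88, CYR61 52, AMOTL2 51 and ANKRD1 32. H3K27ac summits in the 7 windows numbered 68 and 110 in the LCC replicates, 117 in TGFb, 69 in SO1 and 89 in H2030. The TGFb count lay just above that of LCC replicate 2 and the SO1 count just above that of replicate 1. As a share of the list TGFb, at 0.172%, fell between the replicates (0.134% and 0.175%), and SO1, at 0.123%, fell below both. H3K4me1 summits numbered 130 in LCC, 130 in TGFb, 108 in SO1 and 174 in H2030. The H2030 windows held 0.131% of that list against 0.0912% in LCC. H3K4me3 summits numbered 29, 30, 33 and 23 in the same order.

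Promoters came first. For each gene the promoter-like site was the H3K4me3 summit with the highest score in any condition. The YAP1 site, at chr11:101981542, scored 537 in LCC, 531 in TGFb, 604 in SO1 and 616 in H2030 for H3K4me3. Its H3K27ac score was 223 and 278 in the LCC replicates, 406 in TGFb, 459 in SO1 and 436 in H2030. The YAP1 promoter was thus listed in every H3K4me3 and H3K27ac library, and its H3K27ac ratios to LCC replicate 2, from 1.46 to 1.65, lay between the 10th and 90th percentiles of strong shared summits in all 3 comparisons. For H3K4me3 the H2030 ratio to LCC at YAP1, 1.15, was above the 90th percentile of 1.07. For H3K4me1 within 2.5 kb it was 1.46 against a 90th percentile of 0.995. Neither call was particular to YAP1. The WWTR1 H3K4me3 ratio in H2030, 1.09, was above the same percentile. For H3K4me1 so were the H2030 ratios at TEAD1, 2.73, and at ANKRD1, where H2030 scored 43.1 and LCC 6.15. The LCC H3K4me1 score at TEAD1 was also low, at 7.42. These percentiles come from the strongest 10% of LCC summits of a mark, which included YAP1 for H3K4me3. The LCC summits of WWTR1 for H3K4me3 (78.2nd percentile) and of YAP1, TEAD1 and ANKRD1 for H3K4me1 (86.5th, 35.1st and 28.3rd) were outside that set. Their ratios are thus not matched by score to the percentiles, and no H2030 change is read from them.

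At WWTR1 the H3K4me3 site at chr3:149374795 scored 479 in LCC, 530 in TGFb, 519 in SO1 and 524 in H2030. The nearest H3K27ac summits lay 1445 to 1468 bp above it in every condition, at 239 and 417 in LCC, 501 in TGFb, 434 in SO1 and 348 in H2030. The TEAD1 site at chr11:12696226 scored 534, 578, 577 and 460 for H3K4me3 in the same order of conditions. Its H3K27ac scores were 62.9 and 163 in LCC, 277 in TGFb, 198 in SO1 and 298 in H2030. The TEAD1 promoter differed between the LCC replicates by a factor of 2.59, above the 90th percentile of 2.29 for strong summits of replicate 1. At the 87.2nd percentile of replicate 1, it was not itself among those summits. The reverse ratio, 0.387, lay between the 10th and 90th percentiles for strong summits of replicate 2, 0.310 and 0.749. No order of the conditions was read from this promoter.

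LATS2 carried at chr13:21635546 an H3K4me3 score of 646 in LCC, 613 in TGFb, 606 in SO1 and 543 in H2030. LATS2 H3K27ac there scored 83.0 and 145 in LCC, 297 in TGFb, 176 in SO1 and 374 in H2030. The H2030 score was 2.59 times that of LCC replicate 2 and 4.51 times that of replicate 1, in both cases above the 90th percentile of strong shared summits (2.07 and 3.61). LATS2 and the added CYR61 site below had the highest TGFb ratios to LCC replicate 2 among the members, 2.06 and 1.97, both under the 90th percentile of 2.19. Against replicate 1 the LATS2 ratio of 3.58 was under the 90th percentile of 3.88, whereas those of CYR61 (4.25) and TEAD1 (4.40) were above it. These calls thus depend on the LCC replicate, and TEAD1 was not among the strongest 10% of replicate 1 that gave this percentile. The AMOTL2 site at chr3:134093132 scored 475, 499, 480 and 506 for H3K4me3. AMOTL2 H3K27ac scored 157 and 299 in LCC, 309 in TGFb, 261 in SO1 and 389 in H2030. Its TGFb ratio to LCC replicate 2 was 1.03, just under the 10th percentile of 1.07, and its ratio to replicate 1, 1.97, lay within the range.

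**Figure D1:**
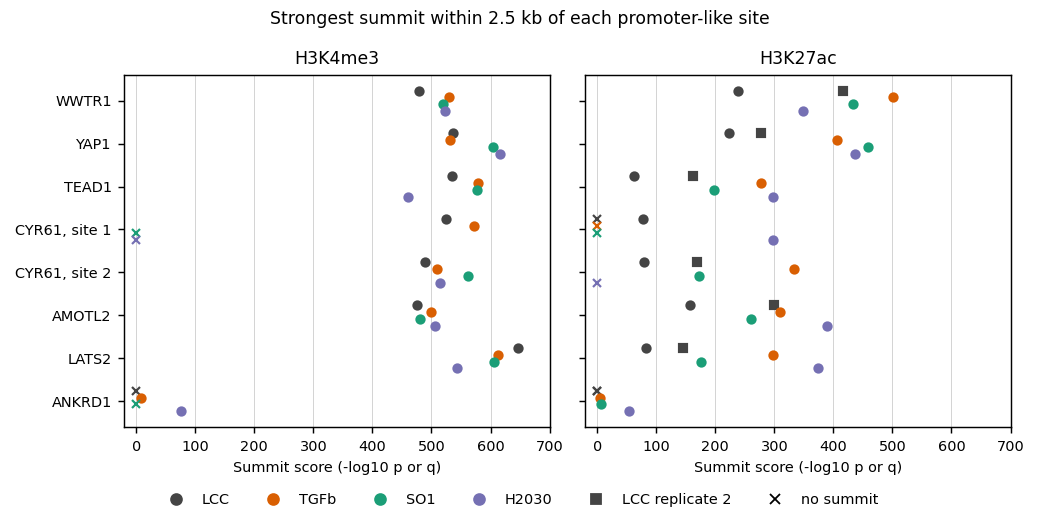
Scores of the strongest H3K4me3 (left) and H3K27ac (right) summit within 2.5 kb of each promoter-like site, 1 symbol for each library on a linear axis, with a cross at 0 where no summit was listed. H3K4me3 scores lie between 460 and 646 at every site where a summit was listed except ANKRD1, where H2030 reaches 75.5.

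ANKRD1 stood apart from the other promoters. Its site, chr10:92680708, had an H3K4me3 summit of 75.5 in H2030, one of 7.60 in TGFb, and none in LCC or SO1. ANKRD1 H3K27ac scored 53.7 there in H2030, 4.51 in TGFb and 5.63 in SO1, and the nearest summits of the LCC replicates lay 9728 and 9577 bp from the H2030 one. H3K4me1 was nonetheless listed within 1 kb of the ANKRD1 site in all conditions, at 6.15 in LCC, 25.1 in TGFb, 60.6 in SO1 and 43.1 in H2030. The LCC summit was weak, at the 28.3rd percentile of its list, and lay 950 bp from the site. In the other conditions the percentiles ran from the 76.6th (TGFb) to the 94.6th (H2030). The H2030 H3K4me3 score stood at the 39.0th percentile of its list, so that even there ANKRD1 lay in the weaker part of the H3K4me3 summits. The TGFb and SO1 H3K27ac scores stood at the 11.8th and 13.4th percentiles of their lists.

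The CYR61 window had a pair of H3K4me3 sites 4239 bp apart. The site that the rule chose, at chr1:86042539, scored 524 in LCC and 573 in TGFb and had no summit within 1 kb in SO1 or H2030. The other, at chr1:86046778, was added after the values were seen. It scored 488 in LCC, 509 in TGFb, 562 in SO1 and 514 in H2030. All 4 conditions thus had a strong H3K4me3 summit in the window, and what differed was whether 1 or 2 were listed. H3K27ac was listed at the second site at 78.6 and 170 in LCC, 334 in TGFb and 172 in SO1. In H2030 it had no summit within 1 kb of the second site and was listed at the first, at 298. LCC replicate 1 listed it there as well, at 77.7. That replicate thus listed both sites and replicate 2 the second alone, so the listed sites differed between replicates of 1 condition. In the RefSeq gene order DDAH1 is the neighbour on the lower side of CYR61 and ZNHIT6 the one on the upper side. Which start each site belongs to was not determined, so neither site can be assigned to CYR61 or to a neighbour.

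Away from its promoter-like site, the WWTR1 window held several sites that not every condition shared. The H3K27ac site of highest percentile among those without an H3K4me3 summit within 1 kb in any condition was at chr3:149420736, which is 45941 bp above the promoter-like site. There SO1 scored 189 (86.5th percentile of its list) and TGFb 73.3 (70.8th percentile). The nearest H3K27ac summit lay 14511 and 14502 bp away in the LCC replicates and 14459 bp away in H2030. The flanking summits nearest to it in LCC replicate 2 scored 5.94 and 8.55. H3K4me1 was listed at this WWTR1 site at 21.8 in LCC, 36.8 in TGFb and 90.1 in SO1, and in H2030 the nearest H3K4me1 summit was 13119 bp away, at 2.62. The site was therefore under H3K4me1 in LCC without a listed H3K27ac summit, under both marks in TGFb and SO1, and under neither in H2030. TGFb and SO1 were compared with the same LCC libraries. RefSeq gives WWTR1 2 starts whose spacing in GRCh38.p14 is 45248 bp. No position was converted between builds, so whether the upper start is at this site was not tested.

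A second WWTR1 site, at chr3:149338817-149339028, scored 48.4 and 70.9 in LCC, 288 in TGFb, 371 in SO1 and 54.2 in H2030 for H3K27ac. TGFb and SO1 stood above both LCC replicates here and H2030 between them. No list had an H3K4me1 summit within 1 kb, though TGFb had one of 76.4 at chr3:149337442. Another WWTR1 site, at chr3:149297335-149297404, scored 246 and 394 in LCC, 464 in TGFb and 539 in SO1 for H3K27ac. H2030 had none there, and its own summit of 427 lay 3562 bp below. A further H2030 summit, of 350 at chr3:149266485, fell on a site that scored between 4.96 and 24.8 in the other 4 H3K27ac libraries.

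The WWTR1 site at chr3:149272091-149272597 was not listed in SO1. H3K27ac scored 150 and 167 there in LCC, 252 in TGFb and 103 in H2030, and SO1 had no summit within 1 kb. The flanking SO1 summits scored 24.8, at 5717 bp below the LCC summit, and 539, at 25079 bp above it. H3K4me1 scored 120 in LCC and 81.8 in TGFb at this WWTR1 site, and the nearest SO1 H3K4me1 summit was 20533 bp from the LCC one. SO1 had in turn the highest H3K4me3 score there, 62.5, against 8.96 in LCC and 11.7 in TGFb.

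**Figure D2:**
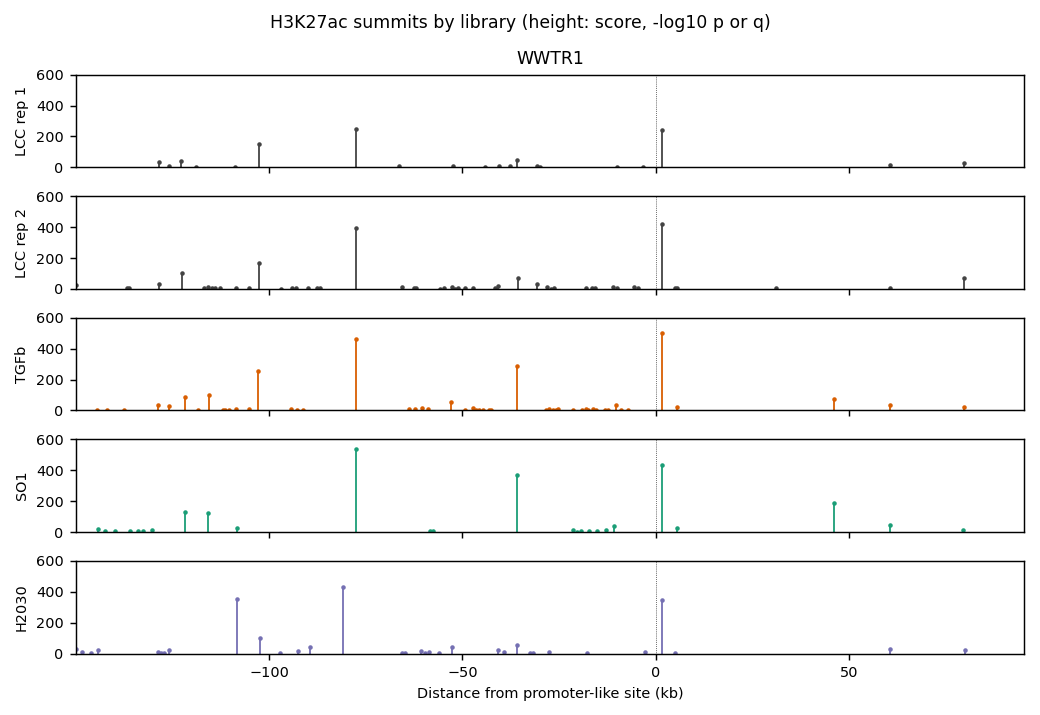
H3K27ac summits in the WWTR1 window of 245 kb, with distance from the promoter-like site in kb across and score (−log10 p or q) upwards, 1 row for each library. The summit near +46 kb is drawn in TGFb (73.3) and SO1 (189) and is absent from both LCC rows and from H2030, while the promoter summit is present in all 5.

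H3K4me1 summits were also laid out differently across WWTR1. LCC had none between chr3:149297343, which scored 105, and chr3:149373859, which scored 7.80, a stretch of 76.5 kb. In that stretch TGFb had 6 H3K4me1 summits with scores up to 88.3 and H2030 had 10 with scores up to 69.1. SO1, like LCC, had none, and its own stretch without an H3K4me1 summit was 81.0 kb long, with flanking scores of 168 and 73.1. LCC was not unmarked in this stretch, since its replicates listed 11 and 24 H3K27ac summits there and SO1 listed 11. A joined H3K4me1 peak in LCC and SO1 and a lack of H3K4me1 cannot be told apart from summits.

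At TEAD1 the H3K27ac site of highest percentile among those without H3K4me3 within 1 kb was at chr11:12707662, 11436 bp above the promoter-like site. It scored 14.6 and 16.1 in LCC, 217 in TGFb and 259 in SO1. H2030 had no summit within 1 kb, and its nearest, of 313, was 7036 bp away. No list had H3K4me1 or H3K4me3 at this TEAD1 site within 1 kb. Both TGFb and SO1 thus stood more than 10 times above both LCC replicates. A step of that size was not rare: of LCC replicate 1 summits between the 50th and 60th percentiles, 11.1% had a TGFb summit within 1 kb with at least 10 times the score, 10.4% an SO1 summit and 0.869% a replicate 2 summit. For replicate 2 the shares were 4.07% in TGFb, 4.24% in SO1 and 0.0161% in replicate 1.

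The highest H3K27ac scores of the TEAD1 window were listed at chr11:12714698-12714777 or chr11:12716131-12716143, depending on the library, where each position also had H3K4me3 within 1 kb. The strongest summits of these positions were 18508 and 19917 bp above the promoter-like site. LCC replicate 1, SO1 and H2030 listed the lower position, at 193, 512 and 313. LCC replicate 2 and TGFb listed the upper one, at 290 and 429. As the LCC replicates parted in the same way, the position does not separate conditions. At chr11:12746329 in TEAD1 the scores were 74.6 and 120 in LCC, 157 in TGFb, 178 in SO1 and 142 in H2030, so all conditions shared that site.

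The YAP1 window shared its main summits between conditions. The YAP1 site of highest percentile among those without H3K4me3 within 1 kb, at chr11:102112494, scored 13.8 and 43.4 in LCC, 11.4 in TGFb, 35.3 in SO1 and 4.16 in H2030, so SO1 fell between the LCC replicates and TGFb and H2030 fell below both. H3K4me1 at that YAP1 site scored 85.0 in LCC, 28.7 in TGFb, 75.4 in SO1 and 4.95 in H2030. Near chr11:102049032, also in the YAP1 window, H3K27ac scored 45.3 and 81.8 in LCC, 170 in TGFb, 210 in SO1 and 187 in H2030. Around chr11:102010324 the LCC replicates listed summits of 67.8 and 61.8 that were 1010 bp apart, which is just past the distance that counts as 1 site.

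**Figure D3:**
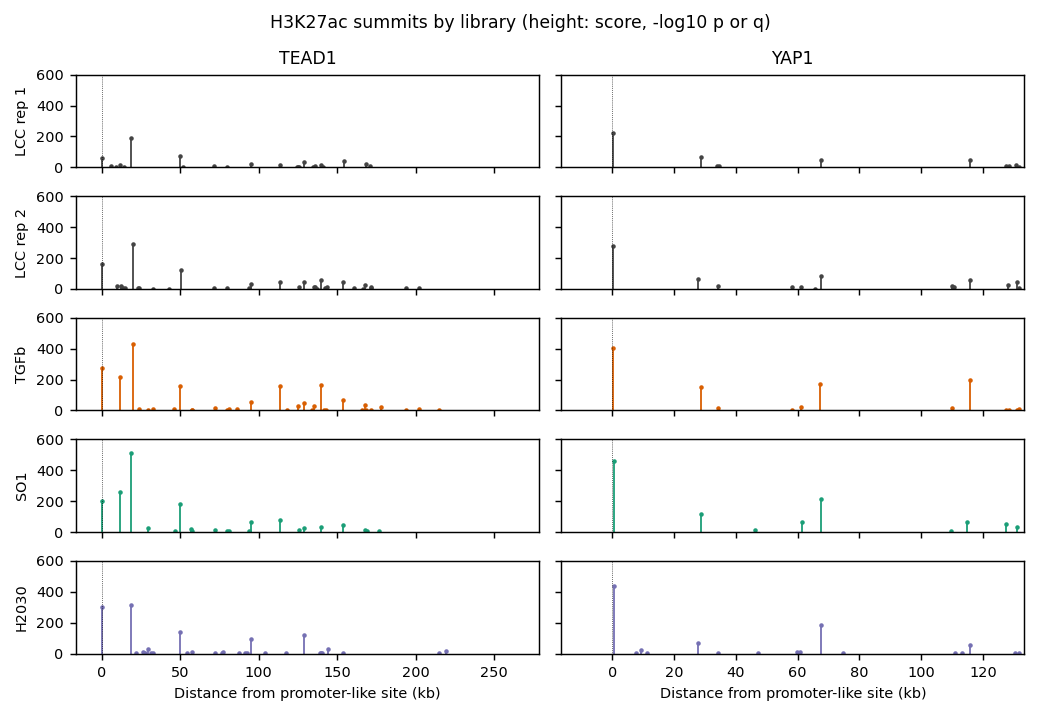
H3K27ac summits in the TEAD1 and YAP1 windows, with distance from each promoter-like site in kb across and score (−log10 p or q) upwards, 1 row for each library. In TEAD1 the summit near +11 kb reaches 217 in TGFb and 259 in SO1 against 14.6 and 16.1 in LCC, while the YAP1 rows share their main summits.

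At AMOTL2, 2 sites below the promoter had H3K27ac in LCC, TGFb and SO1 and none in H2030. The first site at chr3:134083390-134083438, below its promoter-like site, scored 92.8 and 269 in LCC, 320 in TGFb and 193 in SO1 for H3K27ac, and the nearest H2030 summit was 9726 bp away, the promoter summit of 389. H3K4me1 there scored 95.3, 86.3 and 121 in LCC, TGFb and SO1 and was not listed within 1 kb in H2030. H2030 did list an H3K4me3 summit of 91.7 at this AMOTL2 site, against 36.1, 68.6 and 96.1 in the other conditions in the order LCC, TGFb and SO1. H3K4me3 was thus listed there in all 4 conditions. At chr3:134076594 AMOTL2 H3K27ac scored 39.6 and 110 in LCC, 118 in TGFb and 21.2 in SO1, and the nearest H2030 H3K27ac summit was 16522 bp away. H2030 did list H3K4me1 within 1 kb of it, at 95.7 (chr3:134076206), as did LCC, at 91.7 (chr3:134077349). The strongest AMOTL2 site without H3K4me3, at chr3:134088599, scored 18.5 and 24.1 in LCC and 43.7 in TGFb and was not listed in SO1 or H2030. H3K4me1 at that AMOTL2 site scored 74.2 in LCC, 15.4 in SO1 and 60.9 in H2030 and was not listed within 1 kb in TGFb, so there the marks did not set H2030 apart.

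LATS2 had 1 distal H3K27ac site, at chr13:21644180, that only the H2030 list held, at 130 (80.2nd percentile). The other 4 libraries had their nearest summit at the promoter, between 8645 and 8715 bp away. H3K4me1 was listed at this LATS2 site in all conditions, at 14.4 in LCC, 7.13 in TGFb, 13.7 in SO1 and 49.5 in H2030. Over the whole LATS2 window H2030 listed 28 H3K4me1 summits, against 12 in LCC and 8 each in TGFb and SO1.

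The distal ANKRD1 site, at chr10:92690023 and 9315 bp from the promoter-like site, scored 19.0 and 9.79 in LCC, 4.97 in TGFb and 90.2 in H2030 for H3K27ac, with none in SO1. H3K4me1 there scored 14.4 in LCC, 8.44 in TGFb and 31.1 in H2030, and the nearest SO1 summit was 9089 bp away. SO1 thus listed neither mark at the distal ANKRD1 site. Another ANKRD1 position, near chr10:92671786 and chosen after its values were seen, had H3K4me1 in all conditions, at 20.2 in LCC, 13.9 in TGFb, 18.0 in SO1 and 24.9 in H2030. The LCC score there was the highest of its 5 H3K4me1 summits in the window. In CYR61 the distal site at chr1:86034810 scored 48.1 in TGFb, 2.51 and 6.85 in LCC, 3.92 in SO1 and 4.16 in H2030, so TGFb was above all others there.

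**Figure D4:**
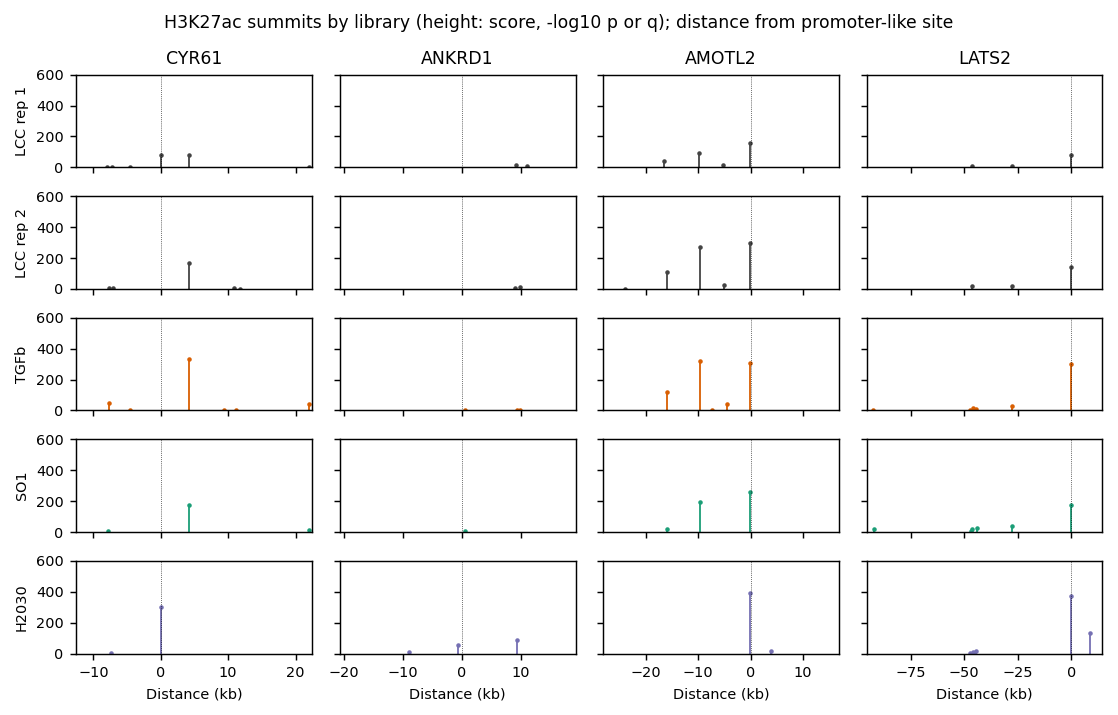
H3K27ac summits in the CYR61, ANKRD1, AMOTL2 and LATS2 windows, with distance from each promoter-like site in kb across and score (−log10 p or q) upwards, 1 row for each library. H2030 alone has the LATS2 summit near +9 kb (130) and lacks the AMOTL2 summit left of the promoter-like site that the other 4 libraries list at 92.8 to 320.

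Counts over the 7 windows were set beside the same counts over whole lists. A summit was kept when the other list had one within 1 kb. Of the 68 and 110 LCC H3K27ac summits in the windows, TGFb kept 53 (77.9%) and 84 (76.4%), with 79.6% and 76.1% over the whole lists. SO1 kept 40 (58.8%) and 52 (47.3%), with 73.1% and 65.9% over the lists. H2030 kept 36 (52.9%) and 49 (44.5%), with 47.4% and 41.6% over the lists. The mean over the LCC replicates was 77.2% ± 1.12 (SD, n = 2) for TGFb, 53.0% ± 8.17 for SO1 and 48.7% ± 5.94 for H2030. LCC replicate 2 itself kept 54 of the 68 summits of replicate 1 (79.4%, list 84.2%), and replicate 1 kept 53 of the 110 of replicate 2 (48.2%, list 66.4%). The SO1 share of replicate 2 summits was thus as low as that of the other LCC replicate. The SO1 share of replicate 1 summits, 58.8%, was below the 79.4% of the other replicate, and 7 of the 20 WWTR1 summits were among those kept, where the other replicate kept 15 of them.

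Of the 130 LCC H3K4me1 summits TGFb kept 95 (73.1%, list 74.6%), SO1 81 (62.3%, list 65.1%) and H2030 64 (49.2%, list 45.5%). Of the 29 H3K4me3 summits TGFb kept 28 (96.6%, list 93.2%), SO1 25 (86.2%, list 88.3%) and H2030 17 (58.6%, list 67.1%). None of these 6 shares lay more than 10 percentage points from its list.

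Strong gains and losses were counted next. A strong summit scored at or above the median of its own list, and it was gained when neither LCC list of that mark had a summit within 1 kb. It was lost when LCC had it, in both replicates for H3K27ac, and the other condition had none within 1 kb. Between the LCC replicates, 7.34% of strong H3K27ac summits in replicate 1 and 8.22% in replicate 2 had none of the other replicate within 1 kb over the whole lists. In the windows such summits were 1 each in CYR61, TEAD1 and YAP1 for replicate 1. For replicate 2 they were 3 in WWTR1, 2 in YAP1 and 1 in TEAD1. Here a summit had to be absent from 1 LCC list only, which is a looser rule than absence from both. These shares therefore compare with the counts against 1 replicate alone given below, and not with the main gains and losses.

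For H3K27ac TGFb gained 2 of 41 strong summits in the windows (list 7.94%) and lost 1 of 28 (list 7.31%). The gains were the WWTR1 site at chr3:149420724 and a TEAD1 summit of 21.1 at chr11:12873848, which stood at the median of its list. The loss was a WWTR1 summit of 43.7 at chr3:149252136, and TGFb had one of 85.6 only 1085 bp away. SO1 gained 1 of 28 (list 7.79%), the WWTR1 site at chr3:149420736, and lost 5 of 28 (list 10.9%). The SO1 losses were 3 in WWTR1, at chr3:149246470, chr3:149252136 and chr3:149272273, 1 in AMOTL2 at chr3:134087968 and 1 in ANKRD1 at chr10:92689877. H2030 gained 8 of 34 (list 26.4%) and lost 9 of 28 (list 35.3%). H2030 gains included ANKRD1 at chr10:92680149 and LATS2 at chr13:21644180, both described above, with 3 in WWTR1 and 1 each in TEAD1 (27.5 at chr11:12725478), YAP1 (25.7 at chr11:101990782) and AMOTL2 (19.6 at chr3:134097038). The WWTR1 gains were at chr3:149230543, chr3:149293842 and chr3:149314111, at 25.4, 427 and 16.5. H2030 losses were 3 in AMOTL2 (chr3:134076594, chr3:134083390 and chr3:134087968), 3 in TEAD1 (chr11:12707747, chr11:12809739 and chr11:12864261), 2 in WWTR1 (chr3:149252136 and chr3:149297404) and 1 in CYR61 at chr1:86046785. With LCC replicate 1 alone as the reference the gains were 7 in TGFb, 4 in SO1 and 13 in H2030 (list 18.0%, 14.9% and 34.4%), and with replicate 2 alone 4, 2 and 11 (list 11.1%, 11.7% and 29.7%). The losses were then 3, 6 and 10 of 31 for replicate 1 alone (list 10.9%, 13.7% and 37.4%) and 4, 10 and 17 of 40 for replicate 2 alone (list 9.33%, 14.9% and 41.8%). No H3K27ac count exceeded its list share beyond the Wilson 95% interval, which covers counting error only.

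For H3K4me3 TGFb gained 0 of 8 (list 1.10%) and lost 0 of 7 (list 1.12%), SO1 gained 0 of 7 (list 1.43%) and H2030 gained 0 of 6 (list 4.93%). SO1 lost 1 of 7 (list 1.59%) and H2030 lost 1 of 7 (list 7.57%), in both cases the summit at chr1:86042559 in the CYR61 window. Its gene was not determined, and its neighbour 4219 to 4319 bp away remained listed. These windows hold too few H3K4me3 summits to show a share below the Wilson upper limits of 32.4% for 0 of 8, 35.4% for 0 of 7 and 39.0% for 0 of 6.

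H3K4me1 counts stood further from the lists. TGFb gained 20 of 80, or 25.0% (95% interval 16.8% to 35.5%), against 12.0% over the list, and lost 9 of 70 (list 9.76%). WWTR1 had 10 of the TGFb gains, TEAD1 6, YAP1 3 and AMOTL2 1. Without the WWTR1 window the count was 10 of 58, for which no interval was computed. The intervals take summits as independent, which calls that share 1 stretch may not be, and H3K4me1 had no replicate. With no LCC summit allowed within 10 kb it was 4 (list 1.26%), all in the WWTR1 stretch of 76.5 kb described above, at chr3:149321032, chr3:149337442, chr3:149348889 and chr3:149354146 with scores of 59.5, 76.4, 23.8 and 24.2. SO1 gained 11 of 61 (list 12.8%) and lost 20 of 70, or 28.6% (95% interval 19.3% to 40.1%), against 18.1% over the list. TEAD1 had 9 of the SO1 losses, WWTR1 6, YAP1 2, and ANKRD1, CYR61 and LATS2 1 each. H2030 gained 40 of 92 (list 34.6%) and lost 34 of 70 (list 43.6%). The strongest TGFb gain in WWTR1 was 107 at chr3:149290452, in TEAD1 53.8 at chr11:12821341, in YAP1 62.5 at chr11:101986901 and in AMOTL2 45.0 at chr3:134091932. Each had an LCC summit of higher score nearby, at 2238, 3700, 2365 and 2348 bp in that order. The TEAD1 gains at chr11:12700295 and chr11:12702317 lay 1019 and 1003 bp from the same LCC summit, itself called lost. A shifted summit and a new site cannot be told apart at such gains. The strongest SO1 loss in WWTR1 was 120 at chr3:149272222, in TEAD1 62.9 at chr11:12825041 and in YAP1 85.4 at chr11:101989266. Over all windows the strongest TGFb loss was 141 at chr3:149292690 and the strongest SO1 gain 168 at chr3:149296213, both in WWTR1 and both near a summit of the other side, 2035 and 1130 bp away. For H2030 the strongest gain was 95.7 in AMOTL2 at chr3:134076206, with an LCC summit 1143 bp away, and the strongest loss was the same LCC summit in WWTR1 as for SO1, at chr3:149272222, 20465 bp from the nearest H2030 summit. The strongest SO1 losses of TEAD1 and YAP1 had an SO1 summit 1017 and 1225 bp away, just past the distance that counts as the same site. Over all 9 TEAD1 losses that distance ran from 1017 to 15129 bp, and over the 6 of WWTR1 from 1130 to 23209 bp, 4 of them at 10191 bp or more. The second YAP1 loss was 3208 bp and the ANKRD1 loss 9792 bp from the nearest SO1 summit.

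**Figure D5:**
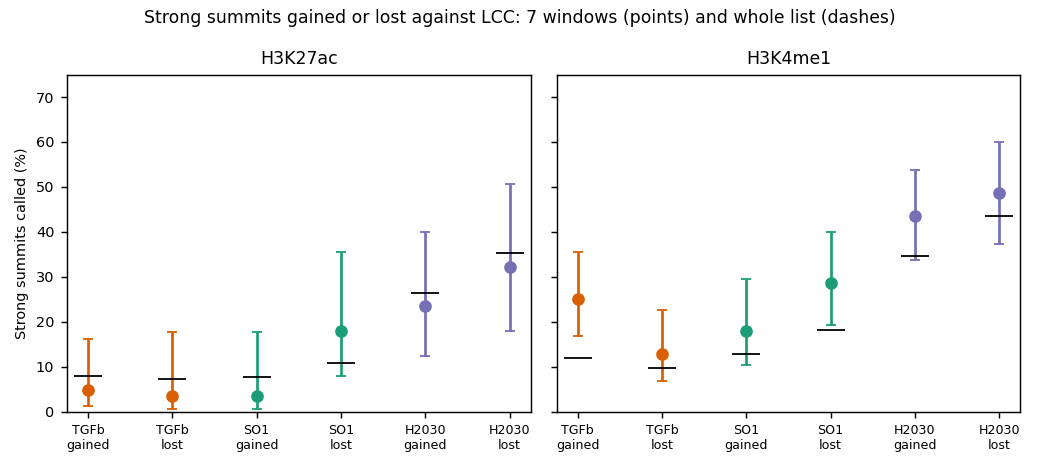
Percent of strong H3K27ac (left) and H3K4me1 (right) summits called gained or lost against LCC in each condition, for the 7 windows (points with Wilson 95% intervals, counting error only) and for the whole list (dashes). H3K4me1 gained in TGFb (25.0% against 12.0%) and lost in SO1 (28.6% against 18.1%) are the cases whose interval leaves out the dash. WWTR1 held 10 of the 20 TGFb gains, the intervals take summits as independent, and H3K4me1 had no replicate.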

How the data were processed

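The submitters' processing notes name hg19 as the build and Bowtie2, SAMtools and deepTools as tools. Neither versions nor a peak caller is given in the sources used here. The authors deposited, for each of 13 libraries, a list of 1 bp peak summits with a −log10 score, read as a p-value or q-value because the lowest scores lie just above that of 0.05, and which of these it is was not settled. Per the peak names in the files, each library was called on its own. The deposited lists give no widths or read counts, so depth is unknown.

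Only chromosomes 1 to 22 and X entered, so 29 to 238 summits per list stayed out. Members and gene windows were chosen with earlier results of these data known. A summit within 1 kb counted as the same site. Percentiles are ranks within a list. Named sites were, per gene, the highest H3K4me3 summit, the H3K27ac site of highest percentile without H3K4me3 within 1 kb, every strong H3K27ac or H3K4me3 gain and loss and the strongest H3K4me1 ones per comparison. Sites with an H3K27ac summit in the top 10% of a list, the second CYR61 site, the YAP1 sites beyond the rule and the WWTR1 stretch were chosen after seeing the values. Shares have Wilson 95% intervals (SciPy 1.17.1). On simulated lists with 200 planted gains and 200 planted losses, all were recovered in each mark. The planted sites stood well apart from other LCC summits, so their recovery checks the counting and not the rate of false calls. Calls with a neighbour just past 1 kb were not tried. Other Hippo pathway genes and cell type markers were not analysed here. Alternatives were other distances, lists of equal length, scores of at least 10, no strength condition, and leaving out each LCC replicate.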

Additional observations from a re-analysis of the deposited data

How the results depend on the processing

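No paired analysis was possible because the H3K27ac replicates share their numbers only with inputs, which were not analysed here. Settings are given in the order TGFb, SO1, H2030. With a distance of 500 bp the kept share was 60.9%, 40.3% and 39.8% for H3K27ac, 60.8%, 47.7% and 37.7% for H3K4me1 and 82.8% for H3K4me3 in TGFb. At 2500 bp it was 92.5% for H3K27ac in TGFb and 62.5% in H2030, and 86.9%, 73.8% and 70.0% for H3K4me1. With scores of at least 10 it was 82.8% and 71.4% for H3K27ac in TGFb and SO1 and 100.0% for H3K4me3 in TGFb, and with lists of equal length 65.1% for H3K27ac in TGFb. The windows' share of the list with scores of at least 10 was 0.133% in LCC H3K27ac replicate 2, 0.115% in TGFb H3K27ac, 0.138% in H2030 H3K27ac, 0.108% in TGFb H3K4me1 and 0.0730% in LCC H3K4me3.

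Strong gains and losses shrank with distance. At 2500 bp H3K27ac losses were 0 in TGFb and 3 in SO1, H3K4me1 gains 10, 2 and 25 and losses 3, 11 and 18. At 10 kb H3K27ac gains were 1 in TGFb and 0 in H2030 and losses 0, 0 and 2, H3K4me1 gains 4, 0 and 10 and losses 0, 5 and 7, and H3K4me3 losses 0 in SO1 and H2030. With no strength condition gains were 30, 22 and 36 for H3K27ac, 35, 31 and 105 for H3K4me1 and 5, 9 and 9 for H3K4me3, and losses 8, 17 and 22, then 35, 49 and 66, then 1, 4 and 12. With lists of equal length TGFb had 1 H3K27ac gain and 3 losses. Leaving out 1 LCC H3K27ac replicate gave 4 to 7 gains and 3 to 4 losses in TGFb, 2 to 4 gains and 6 to 10 losses in SO1, and 11 to 13 gains and 10 to 17 losses in H2030. Without the WWTR1 window, a setting chosen after seeing the data, H3K27ac gains were 1, 0 and 5, H3K27ac losses 0 in TGFb and 2 in SO1, and H3K4me1 gains 10 in TGFb. The cause of these shifts was not tested beyond what each setting changes by construction. Whole-list values for these settings are not given here, other than those given above. The kept shares and counts of this section therefore do not set the windows against the lists.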
